A study of Mus musculus with 20 samples.

Results

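RNA polymerase III is the largest of the nuclear RNA polymerases. Its subunits are described here through the 9 genes with a Polr3 symbol that the arrays measured by a probe set of their own, namely Polr3a, Polr3b, Polr3c, Polr3d, Polr3e, Polr3f, Polr3g, Polr3gl and Polr3k. They were taken by symbol and not by how they changed, and each is represented by the probe set, naming that gene alone, with the highest mean log2 signal over all 20 arrays. They are 9 of 19938 genes with such a probe set. A filter on low values kept 15272 genes, those with a signal over the 40th percentile of the array on at least 2 arrays. All 9 subunit genes passed it, but Polr3g passed on 5 of 10 arrays of primary cells and on 0 of 10 of immortalized cells.

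RNA levels in 4 lines of embryo fibroblasts were read with Affymetrix whole-transcript arrays. Primary mouse embryo fibroblasts (MEFs) came from E14.5 embryos, and immortalized lines (iMEFs) were made from MEFs with the SV40 T antigens, viral proteins that bind and inactivate p53 and the retinoblastoma protein. Each cell type was present with conditional Ubf fl/fl alleles (called floxed) or with Ubf wt/wt alleles (called wild type), and all 4 lines carried Er-cre +/+, which encodes a Cre recombinase that 4-hydroxytamoxifen (4-HT) activates. Every line, the wild-type controls included, received 50 nM 4-HT for 4 h and was harvested at 0, 24, 48, 72 or 96 h post 4-HT (pHT). UBF, the product of Ubtf, is the architectural factor of RNA polymerase I on the ribosomal RNA genes. There was 1 array for each line and time, so no condition had a replicate.

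RNA polymerase III makes the transfer RNAs, the smallest ribosomal RNA and other short untranslated RNAs such as those of RNase P and the Y and vault particles. Polr3a and Polr3b encode the 2 large subunits that form its catalytic centre. Polr3c and Polr3f, together with either Polr3g or its paralog Polr3gl, encode a subcomplex that opens the promoter and contacts the initiation factor with the BRF subunit. Polr3d and Polr3e encode a dimer used in termination and reinitiation, and Polr3k encodes the small subunit for transcript cleavage. Polr3g is known to be high in pluripotent and many transformed cells, whereas Polr3gl is the widespread form of differentiated tissue. The arrays measured RNA and not protein.

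The starts of 7 of the 9 genes were matched in a RefSeq promoter table of build GRCm38.p6, which holds 250 bases before and 50 bases after each start. The 4 shown include those of the paralogs Polr3g (chr13:81710964-81711263, minus strand) and Polr3gl (chr3:96594132-96594431, minus strand). The others are those of Polr3b (chr10:84622048-84622347, plus strand) and Polr3f (chr2:144527495-144527794, plus strand), whose levels went together from array to array. Capitals mark matches on either strand to the E-box CACGTG, the ETS core CCGGAA, the GC box GGGCGG, the CCAAT box CCAAT or the TATA box TATAAA, none of which overlapped another here.
Polr3g: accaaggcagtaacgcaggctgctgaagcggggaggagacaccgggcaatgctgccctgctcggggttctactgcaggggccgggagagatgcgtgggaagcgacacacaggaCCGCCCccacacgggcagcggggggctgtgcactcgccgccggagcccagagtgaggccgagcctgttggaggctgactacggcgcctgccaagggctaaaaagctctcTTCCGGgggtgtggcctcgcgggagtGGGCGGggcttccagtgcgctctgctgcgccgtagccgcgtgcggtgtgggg
Polr3gl: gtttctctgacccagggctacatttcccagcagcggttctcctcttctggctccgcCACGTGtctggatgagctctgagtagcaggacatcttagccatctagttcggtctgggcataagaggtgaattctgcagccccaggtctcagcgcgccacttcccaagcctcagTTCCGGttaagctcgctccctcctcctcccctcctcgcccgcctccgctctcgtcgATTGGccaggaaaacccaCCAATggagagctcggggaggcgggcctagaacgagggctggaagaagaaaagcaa
Polr3b: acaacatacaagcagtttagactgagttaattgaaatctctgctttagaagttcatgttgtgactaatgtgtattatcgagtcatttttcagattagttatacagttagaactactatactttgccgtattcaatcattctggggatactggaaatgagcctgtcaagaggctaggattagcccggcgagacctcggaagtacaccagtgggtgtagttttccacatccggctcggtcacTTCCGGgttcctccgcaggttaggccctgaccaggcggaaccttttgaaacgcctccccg
Polr3f: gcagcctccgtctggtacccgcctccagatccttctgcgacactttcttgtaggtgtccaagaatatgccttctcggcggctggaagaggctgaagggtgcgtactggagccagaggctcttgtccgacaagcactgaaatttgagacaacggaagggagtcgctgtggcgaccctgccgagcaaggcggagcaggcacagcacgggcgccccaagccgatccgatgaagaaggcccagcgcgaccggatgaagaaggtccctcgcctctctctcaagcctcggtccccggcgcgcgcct
Polr3g held 2 GC boxes and 1 ETS core, at position -28 from the start. Polr3gl held 1 E-box, 1 ETS core and 2 CCAAT boxes, at -24 and -6. Polr3b held 1 ETS core at -10, and Polr3f held no match to these letters in this window. Over the 7 promoters, 3 held the E-box, 4 the ETS core, 3 the GC box, 2 the CCAAT box and 0 the TATA box, against 7.15%, 14.9%, 35.7%, 37.4% and 13.6% of the 32851 promoters in the table. These matches are a description of the sequence and were not linked to binding. Polr3gl and Polr3c lie on chromosome 3.

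The log2 level of Ubtf, the targeted gene, ranged from 10.01 to 10.62 in floxed iMEFs, from 9.49 to 10.45 in wild-type iMEFs, from 10.53 to 10.65 in floxed MEFs and from 10.22 to 10.75 in wild-type MEFs. The position of its probes relative to the floxed part was not used here, so this level does not check the deletion. The median over the fibroblast markers was 9.85 to 11.65 in iMEFs and 12.25 to 12.63 in MEFs, and 11 of 12 were lower in iMEFs. Lum was low in iMEFs, at 4.94 in floxed and 4.93 in wild-type cells, against 10.47 and 10.06 in MEFs. Macrophage markers were high in MEFs, where their summed level lay between 13.2 and 14.7 on the log2 scale against 10.3 to 11.2 in iMEFs, and 14 of 14 were lower in iMEFs. The median over messenger RNA probe sets was 7.37 to 7.50 in iMEFs and 7.59 to 7.69 in MEFs. A pair of arrays stood apart for the polymerase subunits, that of floxed iMEFs at 24 h pHT and that of floxed MEFs at 96 h pHT. The first correlated with the MEF arrays at a median r of 0.968, the highest among the iMEF arrays, and with the other iMEF arrays at 0.971, the lowest.

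**Figure D1:**
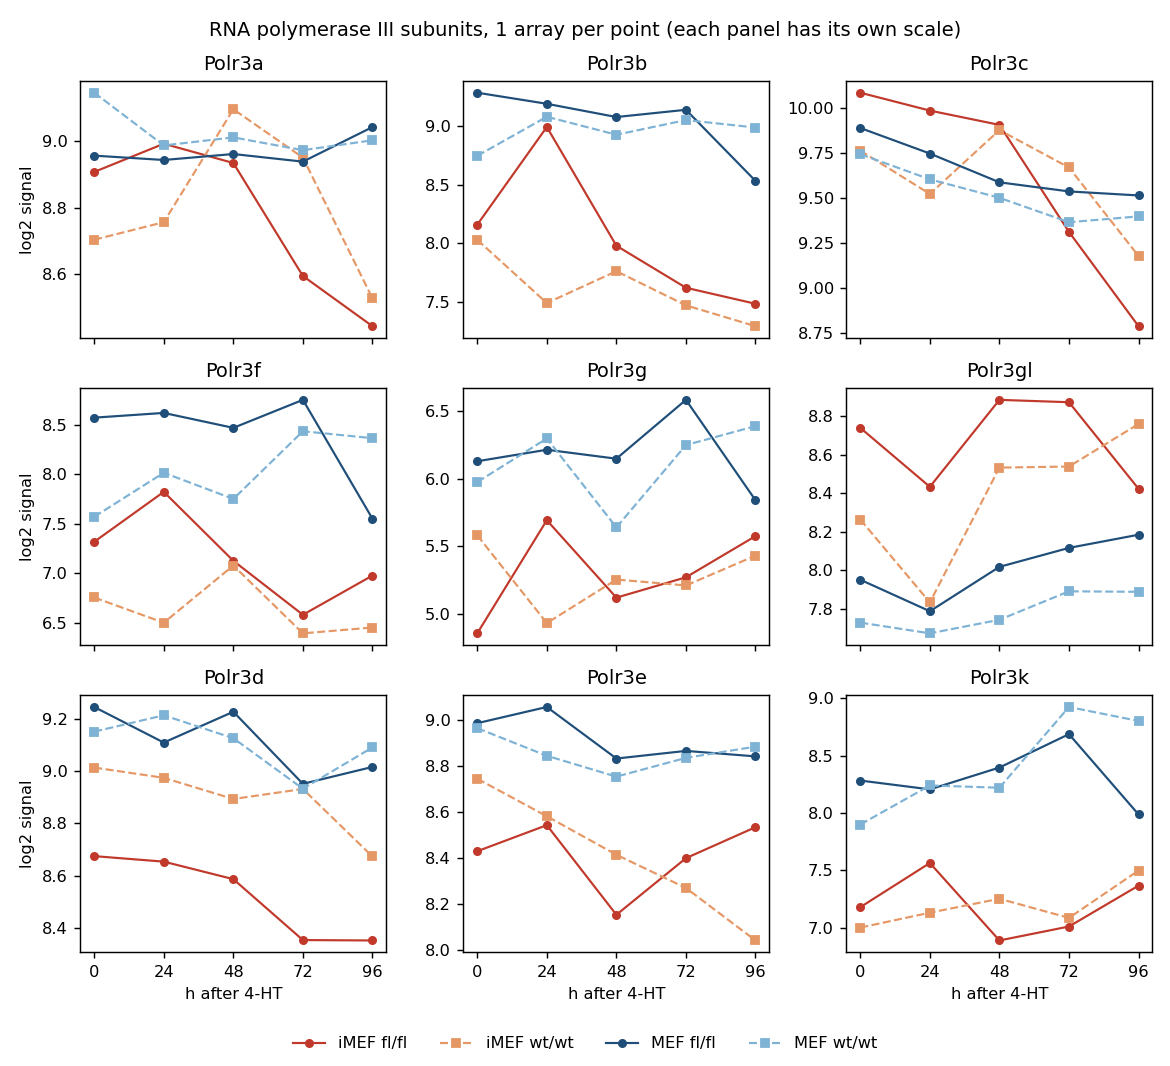
Log2 signal of the 9 subunit genes (vertical axis, a scale of its own in each panel) against hours after 4-HT (horizontal axis) in floxed and wild-type iMEFs and MEFs, 1 array per point. Polr3gl lies higher in iMEFs, whereas Polr3b, Polr3f, Polr3g and Polr3k lie lower there, and Polr3c fell to 8.79 in floxed iMEFs at 96 h.

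The clearest difference among the subunit genes was between the cell types. Compared with MEFs, iMEFs had lower Polr3f (2.48-fold), Polr3b (2.26-fold), Polr3k (2.25-fold), Polr3g (1.81-fold) and Polr3e (1.39-fold), and higher Polr3gl (1.55-fold). Thus 5 of 9 subunit genes were lower and 1 was higher at an adjusted p under 0.05, with Polr3a, Polr3c and Polr3d not past the threshold. Polr3g, among the 5, entered the test only through its MEF arrays, so its call adds little. These counts used limma on the mean of each line over its 5 times, 2 lines against 2, with Benjamini-Hochberg adjustment over the 15272 genes. In the same test 31.2% of all genes were lower in iMEFs and 35.1% higher, so that calls as such were common. The median difference was -0.48 over the 9 subunit genes and 0.12 over all genes on the log2 scale. With messenger RNA probe sets scaled to 1 median the median over all genes was 0.34, and under quantile scaling of them it was 0.21. The former scaling gave 7930 genes higher and 3748 lower, against 5367 and 4764 with the deposited scale, while the subunit genes stayed at 1 higher and 5 lower. A stricter filter, at the 60th percentile, kept 11487 genes and not Polr3g. Over these genes the median was -0.04, with 3687 higher and 4296 lower, and the calls of the 8 subunit genes kept were unchanged.

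Polr3g and Polr3gl encode alternative forms of 1 subunit. Polr3gl was higher in iMEFs. Polr3g was lower there but entered the test only through its MEF arrays, so it adds little to a contrast of the pair. Polr3gl had log2 levels of 8.74, 8.43, 8.89, 8.87 and 8.42 at 0, 24, 48, 72 and 96 h pHT in floxed iMEFs and of 8.26, 7.83, 8.53, 8.54 and 8.76 in wild-type iMEFs. In MEFs it was at 7.95, 7.79, 8.02, 8.12 and 8.19 in floxed cells and at 7.73, 7.67, 7.74, 7.89 and 7.89 in wild-type cells. The 24 h array of wild-type iMEFs was the only iMEF array within the range of the MEF arrays. The difference was 0.63 ± 0.14 (SE) on the log2 scale (adjusted p = 0.0159, limma). It was 0.52 with the wild-type MEF line left out (adjusted p = 0.0617), which was not past the threshold.

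Polr3g lay near the limit of the filter on low values. It was at 4.85, 5.69, 5.12, 5.27 and 5.57 in floxed iMEFs and at 5.58, 4.93, 5.25, 5.21 and 5.43 in wild-type iMEFs. In MEFs the levels were 6.13, 6.21, 6.15, 6.58 and 5.84 in floxed cells and 5.97, 6.30, 5.64, 6.25 and 6.39 in wild-type cells. Only the highest iMEF array, at 24 h in floxed cells, exceeded the lowest MEF array. The difference of -0.86 ± 0.09 (adjusted p = 0.00162, limma) belongs to a gene that entered the test only through its MEF arrays, so it had to differ and its call adds little to the count of 5.

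Polr3f, Polr3b and Polr3k showed the widest differences. Polr3f, of the same subcomplex, was at 7.32, 7.82, 7.13, 6.58 and 6.98 in floxed iMEFs and at 6.75, 6.50, 7.08, 6.39 and 6.45 in wild-type iMEFs. It was at 8.57, 8.62, 8.47, 8.76 and 7.55 in floxed MEFs and at 7.57, 8.02, 7.75, 8.44 and 8.37 in wild-type MEFs. The ranges overlapped through the 24 h array of floxed iMEFs, which lay above 3 of the MEF arrays. The difference in Polr3f was -1.31 ± 0.22 (adjusted p = 0.00665, limma).

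Polr3b, the second-largest subunit, was at 8.16, 8.99, 7.98, 7.62 and 7.48 in floxed iMEFs and at 8.03, 7.49, 7.76, 7.47 and 7.29 in wild-type iMEFs. In MEFs it was at 9.28, 9.19, 9.08, 9.14 and 8.53 in floxed cells and at 8.74, 9.08, 8.93, 9.05 and 8.99 in wild-type cells. Again the 24 h array of floxed iMEFs was the only iMEF array inside the MEF range. The difference was -1.17 ± 0.16 (adjusted p = 0.00384, limma).

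Polr3k, the cleavage subunit, had no overlap between iMEF and MEF arrays. Its log2 levels were 7.18, 7.56, 6.89, 7.01 and 7.37 in floxed iMEFs and 7.001, 7.13, 7.25, 7.09 and 7.50 in wild-type iMEFs. They were 8.28, 8.21, 8.40, 8.69 and 7.99 in floxed MEFs and 7.90, 8.24, 8.22, 8.93 and 8.80 in wild-type MEFs. The highest iMEF array lay 0.34 below the lowest MEF array, and the difference was -1.17 ± 0.09 (adjusted p = 0.00101, limma). The share of all genes without such overlap was not computed, so the gap is a description only.

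The other subunits differed less. Polr3e ranged from 8.04 to 8.74 over the 10 iMEF arrays, with a median of 8.42, and from 8.75 to 9.06 over the 10 MEF arrays, with a median of 8.86. These ranges did not overlap, though the gap was only 0.00917, and the difference was -0.48 ± 0.08 (adjusted p = 0.00737, limma). Here too the share of all genes without overlap was not computed. A dimmer probe set of Polr3e, not used elsewhere, gave -0.42. Polr3d, its partner, had a median of 8.67 in iMEFs and 9.12 in MEFs, and its difference of -0.40 ± 0.14 did not pass (adjusted p = 0.0612, limma). In Polr3d the wild-type iMEF line, at a mean of 8.90, lay above the floxed iMEF line at 8.52.

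Polr3a, the largest subunit, had medians of 8.83 in iMEFs and 8.98 in MEFs, a difference of -0.21 ± 0.08 (adjusted p = 0.0810, limma). The sign of Polr3a depended on scaling, since it was 0.02 or 0.06 with the median or quantile scaling of messenger RNA probe sets. Polr3c had medians of 9.72 and 9.56, and its difference of 0.02 ± 0.09 (adjusted p = 0.852, limma) had a 95% interval from -0.22 to 0.26.

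**Figure D2:**
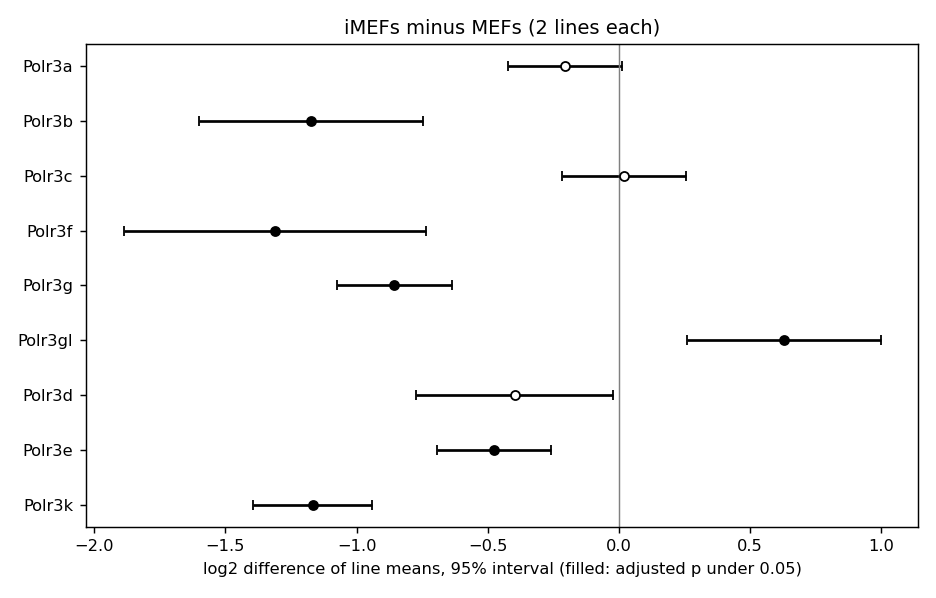
Difference in mean log2 signal between iMEFs and MEFs (horizontal axis) for each subunit gene (vertical axis), with 95% intervals from limma over 4 line means; filled circles have an adjusted p under 0.05. Polr3gl lies at 0.63, and Polr3f, Polr3b and Polr3k lie between -1.31 and -1.17.

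At the early times alone, 0 and 24 h, 2 of the 9 subunit genes were lower in iMEFs and 0 higher. Over all 15272 genes 2428 were lower and 1291 higher in that fit. The 2 were Polr3k and Polr3g, and the call of Polr3g adds little, since it entered the test only through its MEF arrays. Polr3b, Polr3e, Polr3f and Polr3gl no longer passed. Their differences there were -0.91, -0.39, -1.10 and 0.53. Without the array of floxed iMEFs at 24 h and that of floxed MEFs at 96 h, 5 were lower and 1 was higher, as with all arrays. The part of the macrophage markers, which moved with cell type, in these differences was not tested. In bulk samples fewer cells of a type and less RNA per cell cannot be told apart.

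The rest of the machinery also held calls in both directions between the cell types. So did all genes, of which 35.1% were higher and 31.2% lower in iMEFs. Of 8 further subunit genes measured, Crcp and 7 shared with other polymerases, 4 were higher and 3 lower in iMEFs. Polr1c, shared with RNA polymerase I, was higher by 0.97 ± 0.13 (adjusted p = 0.00320), and Crcp was lower, at -0.78 ± 0.09 (adjusted p = 0.00247). Polr2e, shared by all 3 polymerases, and Polr2f, also shared by all 3, were higher by 0.69 and 0.49.

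Of 20 initiation factors and regulators, 18 were measured, with 4 higher and 9 lower in iMEFs and a median of -0.20. Over all genes 35.1% were higher and 31.2% lower, with a median of 0.12, and the counts below stand against these shares. Gtf3c6 (-2.21 ± 0.11) and Gtf3c3 (-1.66 ± 0.15), of the TFIIIC complex, Ssb (-1.74 ± 0.15), the La protein that binds the ends of new transcripts, and Bdp1 (-1.20 ± 0.12), of TFIIIB, were lower. The 4 that were higher were Maf1, the repressor of RNA polymerase III, at 1.16 ± 0.10 (adjusted p = 0.00117, limma), Brf2 (1.07 ± 0.13), Snapc2 (0.94 ± 0.11) and Gtf3a (0.62 ± 0.11). These 4 are named after their values were seen. Of 7 measured RNA polymerase III transcripts 6 passed the filter, of which 5 were higher in iMEFs and 0 lower, led by the vault RNA Vaultrc5 (2.37 ± 0.09) and Rny1 (1.75 ± 0.13). By comparison, of the 6 measured subunit genes peculiar to RNA polymerase I 0 were higher and 3 lower, and of 7 peculiar to RNA polymerase II 4 were higher and 2 lower.

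The second question was whether the subunit genes responded to loss of UBF. Floxed minus wild-type levels at the late times (48, 72 and 96 h) were set against the same subtraction at the early times (0 and 24 h), which removes what 4-HT, Cre and culture do to both genotypes alike, and the result is called the late effect. It was estimated by limma with a term for each line and each time within a cell type, and the error is the scatter among times, not among lines. A drift peculiar to 1 line would enter this value, and drift and UBF loss cannot be told apart. The paper reports full excision of the floxed exons, and already less UBF protein, by the later of the early times. The floxed arrays at 24 h therefore cannot be taken as a baseline from before UBF loss. Differences relative to 0 h alone are given below.

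In iMEFs none of the 9 subunit genes passed, higher or lower, at an adjusted p under 0.05 in limma, where 0.183% of all genes were higher and 0.0393% lower. With simulated data this fit found a planted log2 shift of 1 for 29 of 100 genes in iMEFs and 37 in MEFs. Late effects of that size could therefore be missed. At an unadjusted p under 0.05 there were 2, Polr3c and Polr3a, against 22.1% of all genes. The late effect was negative in 7 of 9, with a median of -0.42 against -0.04 over all genes, of which 53.6% were negative. Relative to 0 h alone, the median genotype difference over the 9 was -0.12, -0.24 and -0.04 at 48, 72 and 96 h. It was negative in 5, 6 and 5 of them, and the medians over all genes were -0.01, -0.06 and -0.08. At 24 h, which the late effect counts as early, the median over the subunit genes was 0.26.

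Polr3c, of the initiation subcomplex, was at 10.09, 9.99, 9.91, 9.31 and 8.79 at 0, 24, 48, 72 and 96 h pHT in floxed iMEFs. In wild-type iMEFs it was at 9.76, 9.52, 9.88, 9.67 and 9.18. Both lines had their lowest value at 96 h, and the floxed line was above the wild type up to 48 h and below it at 72 and 96 h. The late effect was -0.63 ± 0.17 (95% interval from -1.002 to -0.26, adjusted p = 0.0861, limma). It passed, at an adjusted p of 0.0498 (limma), when either MEF array at 96 h was left out, with its value unchanged at -0.63. Over all genes 213 were then higher and 785 lower.

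In MEFs Polr3c was at 9.89, 9.75, 9.59, 9.54 and 9.51 in floxed cells and at 9.74, 9.60, 9.50, 9.37 and 9.40 in wild-type cells. The courses ran in parallel, and the late effect there was -0.02 ± 0.17 (adjusted p = 0.973, limma). The difference between the cell types of -0.61 ± 0.24 did not pass (adjusted p = 0.634, limma).

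Polr3a was at 8.91, 8.99, 8.93, 8.59 and 8.44 in floxed iMEFs and at 8.70, 8.76, 9.09, 8.95 and 8.53 in wild-type iMEFs. The genotypes crossed between 24 and 48 h, and both were low at 96 h. The late effect was -0.42 ± 0.15 (adjusted p = 0.154, limma). In MEFs, where Polr3a was between 8.94 and 9.14 on all 10 arrays, it was 0.10 ± 0.15 (adjusted p = 0.836, limma). The difference between the cell types was -0.52 ± 0.21 (adjusted p = 0.654, limma).

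The late effects of Polr3f (-0.69 ± 0.39), Polr3b (-0.63 ± 0.34), Polr3k (-0.50 ± 0.26) and Polr3gl (-0.42 ± 0.21) in iMEFs had intervals that held 0. Without the 24 h array of floxed iMEFs the value for Polr3b was 0.06. Relative to 0 h, the genotype difference of Polr3b was 1.37 at 24 h and 0.09, 0.02 and 0.06 at 48, 72 and 96 h. At 24 h this quantity was above 0 for all 9 subunit genes in iMEFs, with a median of 0.26, and the 24 h array of floxed iMEFs was the one that correlated best with the MEF arrays. Without either iMEF array at 0 h, Polr3b was at -1.32 with an adjusted p of 0.0459 (limma). The genotype difference in iMEFs then had 24 h as its only early time, and over all genes 79 were higher and 341 lower. Polr3d, Polr3e and Polr3g were at -0.07 ± 0.16, 0.30 ± 0.21 and 0.01 ± 0.40. For Polr3g the 95% interval ran from -0.88 to 0.89, and changes within it were not detectable.

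In MEFs none of the 9 passed in limma either, and 0 reached an unadjusted p under 0.05, against 6.89% of all genes. No gene of the array passed in either direction, that is 0% higher and 0% lower. The widest values were those of Polr3f (-0.73 ± 0.39), Polr3k (-0.47 ± 0.26) and Polr3b (-0.40 ± 0.34). All 3 had their lowest floxed value at 96 h, when the genotype difference relative to 0 h was -1.82 for Polr3f, -1.20 for Polr3k and -0.99 for Polr3b. Without the floxed MEF array at 96 h the late effects were -0.29, -0.21 and -0.21. The summed macrophage markers of that array were at 14.7, the highest of the 20 arrays, and the part of this in the values was not tested. The late effect differed between iMEFs and MEFs for 0 of 9 subunit genes in limma, with 2 at an unadjusted p under 0.05 (Polr3a and Polr3c) against 7.44% of all genes, and for 0% of all genes in either direction.

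**Figure D3:**
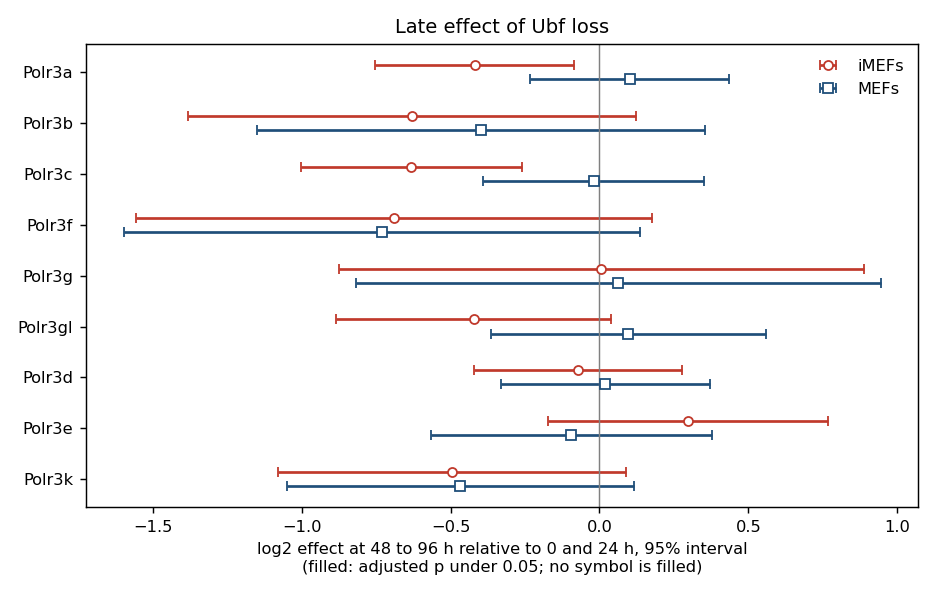
Late effect of Ubf loss on each subunit gene (vertical axis) as a log2 difference (horizontal axis) with 95% intervals from limma, circles for iMEFs and squares for MEFs. No symbol is filled, as no adjusted p was under 0.05, and the iMEF intervals of Polr3c and Polr3a alone exclude 0.

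Among the further subunit genes 0 of 8 passed in iMEFs, with values from -0.49 to 0.27. Among the initiation factors and regulators 0 of 18 passed, with 15 of 18 below 0 and a median of -0.31. The 6 transcripts tested were all above 0 in iMEFs with a median of 0.53, and 2 rose, Rny1 by 2.25 ± 0.36 (adjusted p = 0.0375) and Vaultrc5 by 2.11 ± 0.32 (adjusted p = 0.0338). Rny1, a Y RNA of the Ro particle, and Vaultrc5, a vault RNA, passed while no subunit gene did. With the 24 h arrays left out no gene of the array passed in either direction. All of these values are on the log2 scale and come from the same limma test.

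Apart from genotype, the subunit genes were compared between late times (48, 72 and 96 h) and early times (0 and 24 h), averaged over both genotypes. In iMEFs 0 of 9 passed in limma, against 1.3% of all genes higher and 0.864% lower, while 5 had an unadjusted p under 0.05, against 18.8% of all genes. Polr3b was at -0.57 ± 0.17 (adjusted p = 0.0883), Polr3c at -0.38 ± 0.17 (0.220), Polr3e at -0.27 ± 0.09 (0.127), Polr3d at -0.20 ± 0.09 (0.238) and Polr3gl at 0.35 ± 0.11 (0.107). The value was below 0 in 7 of 9, with a median of -0.20. In Polr3d every late array lay below every early array in both iMEF lines and in wild-type MEFs. The same held for Polr3c in floxed iMEFs and both MEF lines, and for Polr3b in both floxed lines. It also held for Polr3e in wild-type iMEFs and floxed MEFs, and for Polr3f in floxed iMEFs. In Polr3gl every late array lay above every early array in wild-type iMEFs and in both MEF lines. The share of all genes with such a split was not computed. Without the 48 h arrays 2 were lower in limma, Polr3b (-0.70, adjusted p = 0.0236) and Polr3c (-0.60, adjusted p = 0.0107). In that fit 699 of all 15272 genes were higher and 1660 lower.

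In MEFs 0 of 9 passed, against 5.65% of all genes higher and 7.18% lower, and 1 had an unadjusted p under 0.05, against 24.7% of all genes. That was Polr3k, at 0.35 ± 0.16 (adjusted p = 0.190, limma). The other values lay between -0.26 for Polr3c and 0.19 for Polr3gl. Over the same times 11 of 11 proliferation genes fell in MEFs, with a median of -1.99, whereas in iMEFs 1 of 11 fell and the median was -0.14. The change with time differed between the cell types for 0 of 9 subunit genes in limma, with 0 at an unadjusted p under 0.05 against 16.7% of all genes, where 2.32% of all genes were higher and 1.03% lower. In the other lists, the shared subunits Polr1c (-0.52) and Polr2e (-0.35) and the factor Snapc2 (-0.36) fell in MEFs, and Gtf3c6 (-0.80) fell in iMEFs.

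The subunit genes did not vary as 1 block. After each line's mean was removed, Pearson's r was computed for the 36 pairs within the 10 iMEF arrays and within the 10 MEF arrays, which share lines and times and are not independent replicates. Polr3b and Polr3f went together in both, with r of 0.86 in iMEFs and 0.88 in MEFs, and so did Polr3c and Polr3d, with 0.86 and 0.70. Polr3e and Polr3gl went in opposite directions in both, with -0.78 and -0.59. The catalytic pair Polr3a and Polr3b had r of 0.63 in iMEFs and -0.78 in MEFs, and the paralogs Polr3g and Polr3gl had -0.06 and 0.10. The arrays of floxed iMEFs at 24 h and of floxed MEFs at 96 h are the extreme points for Polr3b and Polr3f.

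**Figure D4:**
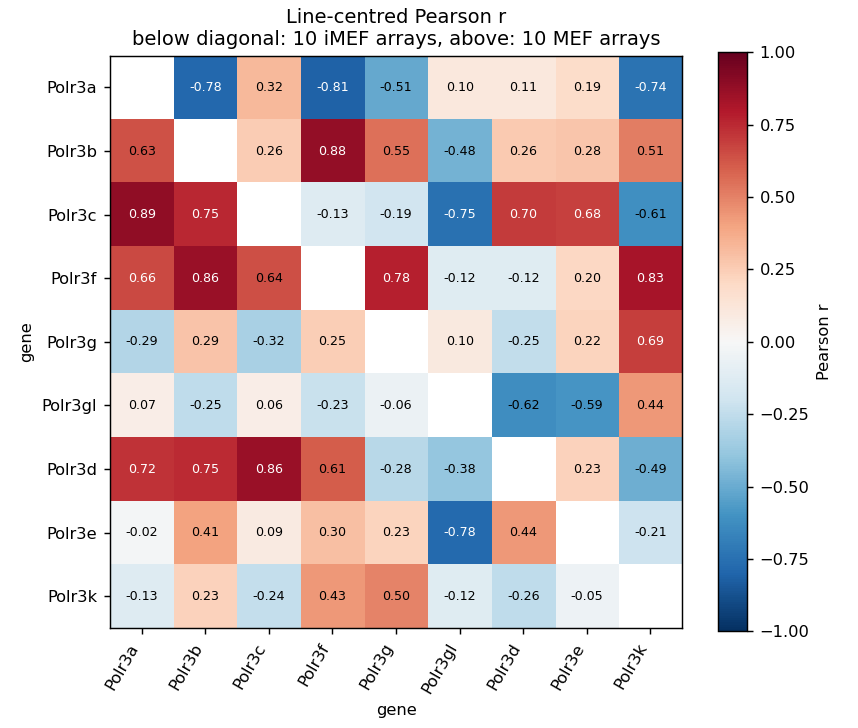
Pearson r between subunit genes after each line's mean was subtracted, below the diagonal over the 10 iMEF arrays and above it over the 10 MEF arrays; both axes list the genes and colour gives r from -1 to 1. Polr3b and Polr3f have r of 0.86 and 0.88, whereas Polr3a and Polr3b have r of 0.63 in iMEFs and -0.78 in MEFs.

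Across the 14372 genes searched, the genes whose line-centred values were most like those of a subunit gene were ranked by the smaller of the r in iMEFs and in MEFs, over 10 arrays each. For Polr3f, the subunit gene with the widest line-centred spread, they were Slc25a40 (0.97), Akap8 (0.96), Ints2 (0.95), Ola1 (0.95) and Etf1 (0.95). For Polr3g they were Zc3h15 (0.86), Kif5b (0.85), Cacybp (0.84), Matr3 (0.81) and Zfp781 (0.81). For Polr3gl they were Cercam (0.90), Man2b2 (0.90), Ccdc28a (0.89), Itm2c (0.89) and Zfp346 (0.88). The lists for Polr3g and Polr3gl shared no gene. These values describe likeness only and carry no test.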

How the data were processed

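RNA from the 20 cultures was hybridized to Affymetrix arrays, and the deposited log2 values were normalized by the authors with RMA-sketch in Affymetrix Power Tools 1.14.4. No counts or detection p-values were used, so depth is unknown and the number of arrays limits the precision. The table's probe sets matched the annotation of an earlier array version than the one the methods name. Of 35556 probe sets, 21789 name 1 gene, 1621 several and 12146 are not listed. Each gene kept its brightest such probe set by mean, after which genes over the 40th percentile on at least 2 arrays were tested by limma 3.58.1 in R 4.3.3, adjusted by the Benjamini-Hochberg method (threshold 0.05). Plots were drawn with matplotlib 3.10.9 in Python 3.11.15. P-values measure scatter between times or lines, which may be technical. Fits were tested on simulated data. A planted log2 shift of 1 was found for 29 of 100 genes in the iMEF late effect and 37 in the MEF one. It was found for 42 between cell types, and for 90 and 92 between times in iMEFs and MEFs. With a shift of 2 the late effects gave 94 and 91, and the cell types 74. Members and lists were chosen with earlier results of these data known. Named genes were all 9 subunit genes, up to 4 genes past the threshold per list and comparison, and the 5 most alike to 3 subunit genes. Beyond that limit, the 4 initiation factors and regulators higher in iMEFs were named after their values were seen. Alternatives covered scaling, filter, probe set choice, times, arrays and lines.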

Additional observations from a re-analysis of the deposited data

Results flagged for a closer look

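For 3 subunit genes, the floxed minus wild-type difference at 48, 72 and 96 h relative to 0 h lay on 1 side of 0 at all 3 times in iMEFs and on the other side at all 3 times in MEFs. The mean in iMEFs minus the mean in MEFs was -0.58 for Polr3a (-0.40 in iMEFs and 0.17 in MEFs), 0.67 for Polr3b (0.06 and -0.61) and -0.40 for Polr3gl (-0.36 and 0.04). These differences relative to 0 h alone were not tested, and the 3 values of a cell type share the 0 h arrays. The tested difference of the late effect, which also uses 24 h as early, gave adjusted p = 0.654, 0.932 and 0.737 in limma.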

How the results depend on the processing

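All 6 calls between iMEFs and MEFs kept their direction under every alternative run, with Polr3e past the threshold in all but quantile scaling, early times alone and the fit without the floxed MEF line (adjusted p = 0.0820, 0.147 and 0.0732). Polr3b, Polr3f and Polr3gl were past it in all but early times alone (adjusted p = 0.0639, 0.0763 and 0.128) and, for Polr3gl, the fit without the wild-type MEF line, and Polr3k and Polr3g in every fit that tested them. Polr3g passed the filter only through its MEF arrays, so its calls add little. Polr3a passed without the 24 h arrays (-0.23, adjusted p = 0.0498, limma) or without only that of floxed iMEFs (-0.23, adjusted p = 0.0476, limma). Over all genes 5866 were then higher and 4949 lower, or 5955 and 4995. With arrays counted as replicates, which times of 1 line are not, Polr3a and Polr3d passed (adjusted p = 0.0181 and 6.49e-05, limma). In that fit 7024 of all genes were higher and 5500 lower. Without the wild-type iMEF line Polr3d was at -0.58. With early times alone 0 subunit genes were higher and 2 lower, and without the wild-type MEF line 0 were higher. Each cell type fitted alone gave 1 gene lower at late times in MEFs (Polr3c, adjusted p = 0.0314), and leaving out 48 h gave 2 in iMEFs. Over all 15272 genes these fits called 1433 lower in MEFs and 1660 lower in iMEFs. Leaving out each array in turn gave 0 to 1 subunit genes lower for the late effect in iMEFs, namely Polr3b without either iMEF array at 0 h and Polr3c without either MEF array at 96 h. It gave 0 to 2 lower at late times in iMEFs, namely Polr3b without the floxed iMEF array at 0 h or the wild-type one at 48 h and both Polr3b and Polr3c without the floxed one at 48 h, and 0 to 1 higher, namely Polr3gl without the floxed iMEF array at 96 h. Without each line in turn 0 to 1 were higher in iMEFs. For Polr3c without either MEF array at 96 h, the late effect and its SE stayed at -0.63 and 0.17. The calls over all genes went from 28 higher and 6 lower to 213 and 785, and to 79 and 341 without either iMEF array at 0 h. For late minus early times in iMEFs they were 187 and 150 without the floxed iMEF array at 0 h and 438 and 1010 without that at 48 h. They were 394 and 695 without the wild-type iMEF array at 48 h and 260 and 76 without the floxed one at 96 h. Why the other calls changed was not tested. The reversals below concern values that passed no threshold.

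Without the 24 h arrays, the late effect in iMEFs was 0.057 for Polr3b, the late effect in MEFs was -0.079 for Polr3d, 0.00046 for Polr3e and -0.056 for Polr3g, late minus early times in iMEFs was 0.094 for Polr3k and late minus early times in MEFs was 0.090 for Polr3g. With 24 h counted as late, the late effect in iMEFs was 0.39 for Polr3b, the late effect in MEFs was -0.11 for Polr3d, 0.048 for Polr3e and -0.10 for Polr3g, late minus early times in iMEFs was 0.13 for Polr3k and late minus early times in MEFs was 0.12 for Polr3g. Without the arrays of floxed iMEFs at 24 h and floxed MEFs at 96 h together (added after the data were seen), the late effect in iMEFs was 0.057 for Polr3b, late minus early times in iMEFs was 0.061 for Polr3k, late minus early times in MEFs was 0.075 for Polr3g and iMEFs minus MEFs was -0.044 for Polr3c. With messenger RNA probe sets scaled to 1 median, the late effect in iMEFs was 0.022 for Polr3d, the late effect in MEFs was 0.017 for Polr3c and iMEFs minus MEFs was 0.021 for Polr3a. With these quantile normalized, the late effect in iMEFs was 0.16 for Polr3d and -0.16 for Polr3g and iMEFs minus MEFs was 0.058 for Polr3a. Without 72 h, the late effect in iMEFs was 0.016 for Polr3d and -0.013 for Polr3g, the late effect in MEFs was -0.055 for Polr3g, late minus early times in iMEFs was 0.033 for Polr3k and late minus early times in MEFs was -0.16 for Polr3f. Without 96 h, the late effect in iMEFs was -0.055 for Polr3g, late minus early times in iMEFs was 0.054 for Polr3a and -0.052 for Polr3g and late minus early times in MEFs was 0.00098 for Polr3g. Without 48 h, the late effect in MEFs was -0.023 for Polr3d and -0.14 for Polr3g, late minus early times in iMEFs was 0.022 for Polr3k and late minus early times in MEFs was 0.11 for Polr3g. With a gene averaged over its probe sets, late minus early times in MEFs was 0.087 for Polr3e. With late times alone, iMEFs minus MEFs was -0.029 for Polr3c. Without the floxed iMEF array at 24 h (also added later), iMEFs minus MEFs was -0.026 for Polr3c. Over the arrays left out in turn, the late effect in iMEFs ran from -1.32 to 0.057 for Polr3b, -0.12 to 0.016 for Polr3d and -0.74 to 0.75 for Polr3g, the late effect in MEFs ran from -0.079 to 0.12 for Polr3d, -0.19 to 0.00046 for Polr3e and -0.14 to 0.39 for Polr3g, late minus early times in iMEFs ran from -0.15 to 0.00041 for Polr3a, -0.16 to 0.25 for Polr3g and -0.13 to 0.061 for Polr3k and late minus early times in MEFs ran from -0.059 to 0.020 for Polr3a, -0.098 to 0.20 for Polr3f and -0.11 to 0.10 for Polr3g. Over the lines left out in turn, iMEFs minus MEFs ran from -0.046 to 0.086 for Polr3c. Over all genes, the late effect in iMEFs called 28 genes higher and 6 lower, but 0 and 0 without 24 h or without 72 h and 382 and 1281 without 96 h. Late minus early times called 199 and 132 in iMEFs, but 0 and 0 with 24 h as late and 699 and 1660 without 48 h, and in MEFs 863 and 1096, but 2 and 6 with 24 h as late. iMEFs minus MEFs called 5367 and 4764, but 1291 and 2428 with early times alone. The labels carry no replicate numbers to use as a block, and the late effect already set floxed against wild-type arrays of the same time. Signal near background limits Polr3g, which was not tested under the stricter filter.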
